A study of Homo sapiens with 4 samples.

Results

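The FOXO transcription factors and a small set of their targets in resting T cells were followed in J.gamma1 cells. This human line was derived from the leukaemic T-cell line Jurkat and carries no PLCG1, an enzyme that acts downstream of the T-cell receptor. The set was chosen by gene symbol and held 8 of the 64252 gene IDs in the count table: the factors FOXO1, FOXO3 and FOXO4, the transcription factor KLF2, the receptors S1PR1, IL7R and CCR7, and the PI3K inhibitor PIK3IP1. All 8 had enough counts to be tested, among 18817 tested genes. Cells had been cultured for 48 h with 10 µM FB23-2, a small-molecule inhibitor of the RNA m6A demethylase FTO, or with the DMSO vehicle at under 0.1%, called Control here. Each group held 2 biological replicates of the same line, and the comparison asked which transcripts differ after exposure to the inhibitor.

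FOXO proteins are forkhead transcription factors that bind DNA when growth factor signalling is low. Signalling through PI3K and the kinase AKT phosphorylates them, after which 14-3-3 proteins hold them outside the nucleus. In resting T cells nuclear FOXO1 is known to maintain IL7R, CCR7 and KLF2, and KLF2 in turn is known to induce S1PR1, so that these genes serve as a readout of quiescence and recirculation. RNA counts give the level of each transcript and say nothing of phosphorylation or of where the proteins are.

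Library totals ran between 33983246 and 37804516 counts for FB23-2 and between 24615359 and 34897961 for Control. Levels are given as TMM-scaled CPM (counts relative to library size), on which 3 counts correspond to 0.0785 to 0.125 CPM. Fold changes are FB23-2 over Control with a standard error (SE) on the log2 scale, and a gene was called where its adjusted p in the edgeR quasi-likelihood test was under 0.05. The T-cell identity of the line was visible in both groups, as the CD3 chain gene CD3D averaged 165.4 CPM in FB23-2 cells, with 279.4 CPM in Control. The T-cell markers as a list were lower with FB23-2: 8 of 10 tested were called lower and 0 higher. The shares of all tested genes were 20.3% lower and 21.8% higher. The summed level of the markers was 1315 and 1245 CPM with FB23-2, against 1769 and 1748 CPM in Control. Because these are bulk libraries, fewer cells of a kind and less RNA per cell cannot be told apart.

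With FB23-2, 5 of the 8 genes were called higher (FOXO1, FOXO3, FOXO4, S1PR1 and CCR7), 0 were called lower, and KLF2, IL7R and PIK3IP1 did not pass. The background is that 21.8% of all tested genes were called higher, 20.3% lower and 42.1% in either direction. The share called higher was 36.5% among genes at a level like that of FOXO3, and 17.5% near that of PIK3IP1. The groups did not overlap for 6 of the 8, for 5 of them with FB23-2 on top, beside 70.8% of all tested genes in either direction and 36.3% with FB23-2 on top. CCR7 alone was called at a rise of 2-fold or more, beside 3.03% of all tested genes. The median log2 fold change of the 8 genes was 0.25, beside 0.00 over all tested genes. Only FOXO1, S1PR1 and CCR7 were called under each of 13 other ways of processing the counts. The count fell to 3 without FB23-2 replicate 1, without Control replicate 1 and with no filter on low counts, since FOXO3 and FOXO4 then lost their calls.

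**Figure D1:**
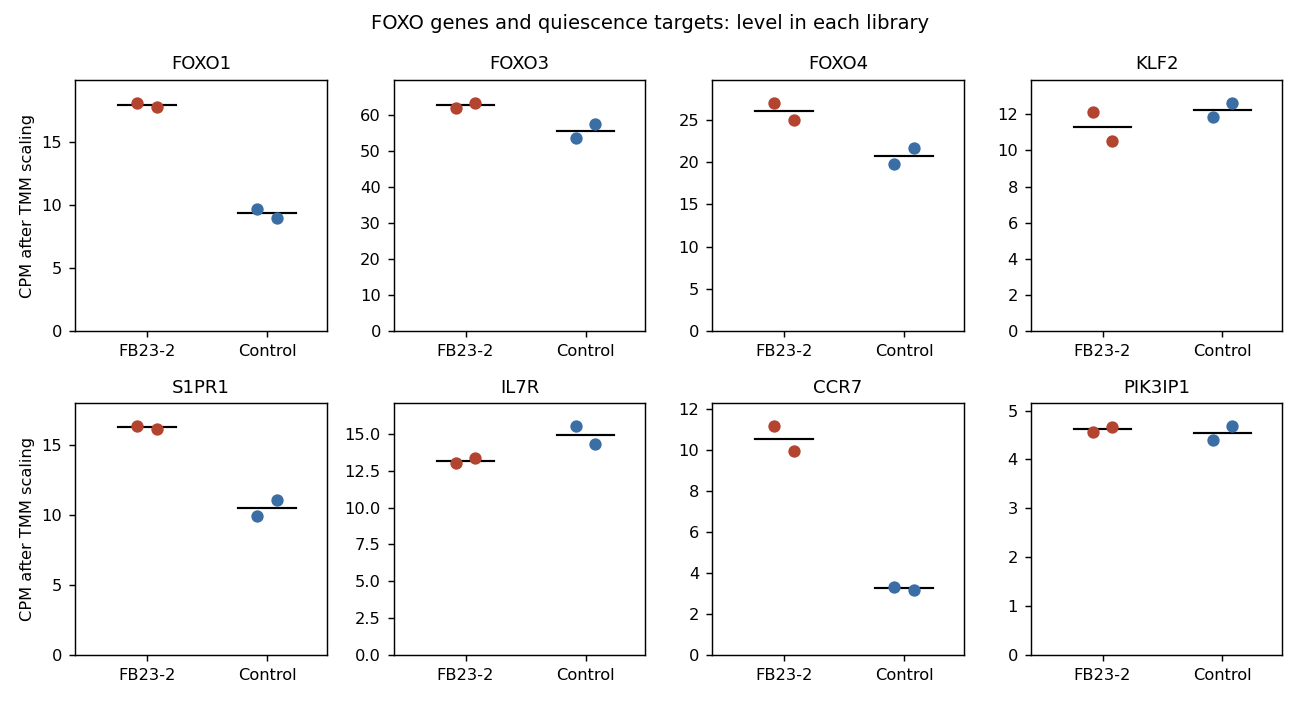
Level of each gene in CPM (vertical axis, from 0) in the 2 FB23-2 libraries and the 2 Control libraries; points are libraries and bars are group means. CCR7, FOXO1 and S1PR1 show groups well apart, such as 9.95 and 11.1 CPM with FB23-2 against 3.17 and 3.32 CPM in Control for CCR7, while the groups overlap for KLF2 and PIK3IP1.

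FOXO1, the family member best known for keeping T cells quiescent and recirculating, rose 1.93-fold. It stood at 18.1 and 17.8 CPM with FB23-2 (693 and 616 counts), against 9.71 and 9.005 CPM in Control (234 and 310 counts). The FB23-2 libraries differed by less than 1 CPM and both lay far above the Control libraries. This gave a log2 fold change of 0.95 ± 0.11 (SE; adjusted p = 1.56e-04 in edgeR), with a 95% interval of 1.61-fold to 2.30-fold. FOXO1 (ENSG00000150907) lies on the minus strand of chromosome 13 of hg38, 40469953 to 40666597, and shares 4.3% of its exon bases with the long noncoding gene LINC00598 on the same strand, which had at most 5 counts in any library.

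FOXO3, which is known for roles in apoptosis and stress resistance, was the most abundant of the 3 factors and moved least. Its level was 62.2 and 63.6 CPM with FB23-2, against 53.8 and 57.5 CPM in Control. The groups did not overlap, but the gap between them was only 1.13-fold. The log2 fold change of 0.17 ± 0.06 passed narrowly (edgeR adjusted p = 0.0479), and the call was lost under 10 of those 13, including without any 1 of the 4 libraries. Without Control replicate 1 the log2 fold change was 0.11 (adjusted p = 0.304), without FB23-2 replicate 1 the adjusted p was 0.126, without FB23-2 replicate 2 it was 0.143, and without Control replicate 2 it was 0.0705. The gene (ENSG00000118689; chromosome 6, 108559835 to 108684774) has a near copy, FOXO3B on chromosome 17, so reads can be split between them. FOXO3B itself stood at 6.15 and 5.45 CPM with FB23-2, against 5.52 and 6.30 CPM in Control. With its counts added to those of FOXO3, an alternative chosen after the values were seen, the log2 fold change was 0.15 (adjusted p = 0.0661).

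FOXO4, an X-linked family member, rose, by 0.32 on the log2 scale. It stood at 27.01 and 24.96 CPM with FB23-2, against 19.7 and 21.7 CPM in Control, so that the groups were separate but each spanned about 2 CPM. Its log2 fold change of 0.32 ± 0.09 passed (adjusted p = 0.0212 in edgeR). The call was lost without FB23-2 replicate 1 (log2 fold change 0.25, adjusted p = 0.14), without Control replicate 1 (0.25, adjusted p = 0.145) or with no filter (adjusted p = 0.0566). FOXO6, the remaining family member, which is known mainly from brain, was outside the set and was looked up after the other values were seen. It stood at 11.3 and 10.4 CPM with FB23-2, against 7.51 and 7.99 CPM in Control (log2 fold change 0.48 ± 0.14, edgeR adjusted p = 0.0178), and lost its call when FB23-2 replicate 1 (adjusted p = 0.106) or either Control library (0.0996 without the first, 0.0758 without the other) was left out.

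Per length, the 3 factors of the set together reached 65.7 and 65.5 TPM (a level corrected for the union exon length) with FB23-2, against 46.6 and 51.4 TPM in Control. FOXO1 made up 15.5% and 15.6% of that sum with FB23-2, against 10.9% and 9.52% in Control. FOXO3 made up 42.8% and 44.9% with FB23-2, against 48.9% and 49.1% in Control. The FOXO4 share overlapped between the groups, at 41.7% and 39.5% with FB23-2 and 40.1% and 41.4% in Control. These shares are descriptive and depend on the exon length assumed for each gene.

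KLF2, a zinc finger factor that restrains T-cell proliferation and directs trafficking, did not pass. It stood at 12.1 and 10.5 CPM with FB23-2, against 11.9 and 12.6 CPM in Control. The groups overlapped, and the lowest library was an FB23-2 one. Its log2 fold change was -0.12 ± 0.13 (adjusted p = 0.502 in edgeR), and the 95% interval ran between 0.755-fold and 1.124-fold. KLF2 (ENSG00000127528) lies on chromosome 19, 16324817 to 16327874. Its processed pseudogenes on chromosome 2 had at most 10 counts in any library.

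S1PR1, the receptor for sphingosine 1-phosphate that lets lymphocytes leave lymphoid organs and a known KLF2 target, rose 1.53-fold. It stood at 16.4 and 16.2 CPM with FB23-2, against 9.96 and 11.1 CPM in Control. The groups were separate, and the FB23-2 libraries were nearly equal. A log2 fold change of 0.62 ± 0.11 resulted (adjusted p = 0.00208 in edgeR), and this p lay between 0.0013 and 0.0226 over the alternatives. S1PR1 (ENSG00000170989) lies on chromosome 1, 101236865 to 101243713.

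CCR7, the chemokine receptor that guides naive and central memory T cells into lymph nodes, had the largest fold change of the 8 genes. It stood at 11.1 and 9.95 CPM with FB23-2 (426 and 345 counts), against 3.32 and 3.17 CPM in Control (80 and 109 counts). The 95% Poisson intervals of the Control libraries, which cover counting error only, were 2.63 to 4.13 and 2.60 to 3.82 CPM, far below either FB23-2 library. The difference was 1.71 ± 0.17 on the log2 scale, or 3.27-fold (adjusted p = 5.21e-05 in edgeR), and 98.6% of tested genes had a lower one. The gene (ENSG00000126353) lies on the minus strand of chromosome 17, 40553769 to 40565472, and the call was kept under every alternative, with log2 fold changes of 1.6025 to 1.7896.

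IL7R, the interleukin-7 receptor chain that sustains naive T-cell survival, stood at 13.0 and 13.3 CPM with FB23-2, against 15.5 and 14.3 CPM in Control. Both FB23-2 libraries lay below both Control libraries, as was so for 34.5% of tested genes, and the difference did not pass (log2 fold change -0.17 ± 0.11, edgeR adjusted p = 0.249, 95% interval 0.747-fold to 1.055-fold). IL7R (ENSG00000168685) lies on chromosome 5, 35852695 to 35879603. PIK3IP1, a membrane protein that inhibits the catalytic subunit of PI3K, was the least abundant of the 8 by CPM in FB23-2 cells. It stood at 4.55 and 4.67 CPM with FB23-2, against 4.399 and 4.677 CPM in Control, and the groups overlapped. Its log2 fold change of 0.02 ± 0.18 (edgeR adjusted p = 0.958) changed sign with upper quartile scaling, with a stricter filter and without Control replicate 1, and its 95% interval ran between 0.761-fold and 1.34-fold. PIK3IP1 (ENSG00000100100) lies on chromosome 22, 31281593 to 31292534.

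**Figure D2:**
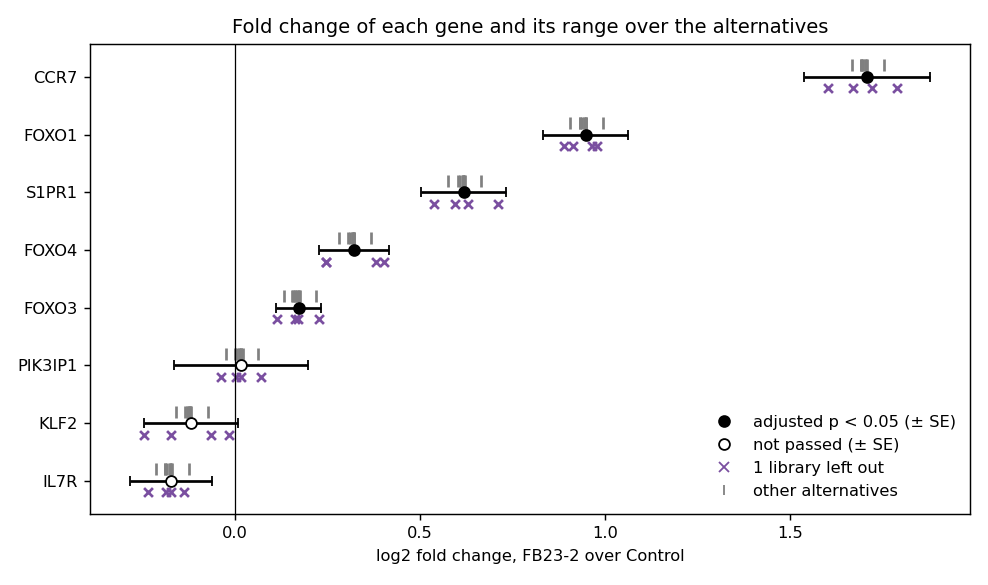
Log2 fold change of FB23-2 over Control (horizontal axis) for each gene, with its SE as a bar, filled where the adjusted p was under 0.05, crosses for fits without 1 library and ticks for other alternatives. CCR7 (1.71), FOXO1 (0.95) and S1PR1 (0.62) stay well right of 0 in every fit, while PIK3IP1 (0.02) lies on both sides of it.

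The order of the genes by level per length differed between the groups. With FB23-2 it was FOXO3 (28.8 TPM), FOXO4 (26.6 TPM), KLF2 (19.8 TPM), CCR7 (14.9 TPM), S1PR1 (11.02 TPM), FOXO1 (10.2 TPM), IL7R (7.69 TPM) and PIK3IP1 (4.29 TPM), and the libraries of no neighbouring pair overlapped. In Control it was FOXO3 (24.02 TPM), KLF2 (20.2 TPM), FOXO4 (20.01 TPM), IL7R (8.19 TPM), S1PR1 (6.72 TPM), FOXO1 (4.997 TPM), CCR7 (4.30 TPM) and PIK3IP1 (3.97 TPM). There KLF2 and FOXO4 could not be ordered, as their libraries overlapped. CCR7 ranked next to last in Control and the fourth with FB23-2.

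**Figure D3:**
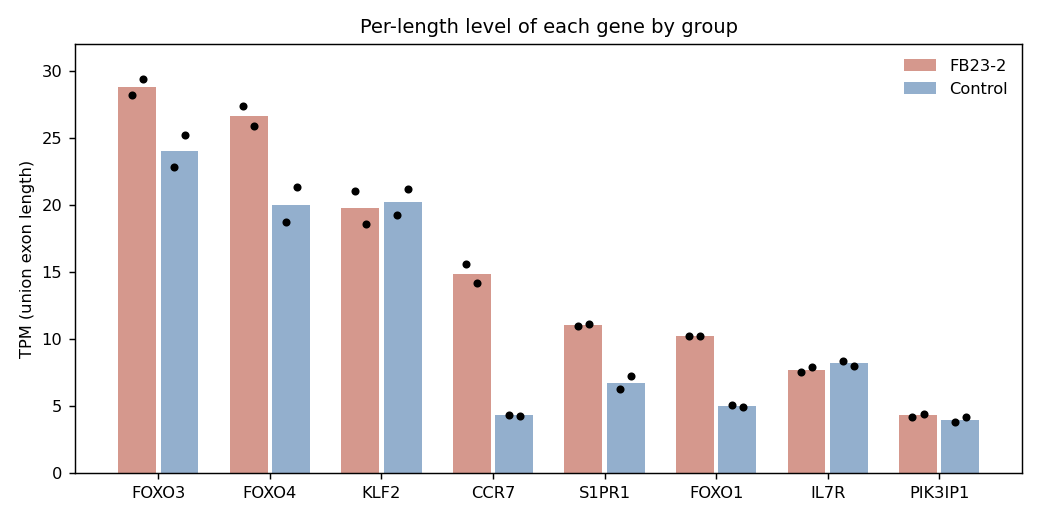
Level per length of each gene in TPM (vertical axis, from 0) with FB23-2 and in Control; bars are means of 2 libraries and points are the libraries. CCR7 has 14.9 TPM in FB23-2 cells against 4.30 TPM in Control cells, while for KLF2 the means are 19.8 TPM with FB23-2 against 20.2 TPM in Control.

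The upstream sequences of 4 of the genes are shown because 2 of them were called higher (FOXO1 and S1PR1) and the other two, KLF2 and IL7R, are known FOXO1 targets that did not pass. Each is the 250 bases before the gene start in RefSeq on GRCh38.p14, read 5′ to 3′ on the gene's strand. The gene spans given above come from GENCODE, in which starts can differ. By those spans the IL7R window lies inside the gene, and the S1PR1 and KLF2 windows run past the gene start. Both marked boxes of S1PR1 then lie inside the gene. Positions are chr13:40666642-40666891 (minus strand) for FOXO1, chr1:101236769-101237018 (plus strand) for S1PR1, chr19:16324576-16324825 (plus strand) for KLF2 and chr5:35856641-35856890 (plus strand) for IL7R. Capitals mark the forkhead core AAACA, the KLF box CACCC and the consensus of the muscle and lymphoid factor MEF2, each on either strand. At 1 place in FOXO1 a core and a box overlap.
FOXO1: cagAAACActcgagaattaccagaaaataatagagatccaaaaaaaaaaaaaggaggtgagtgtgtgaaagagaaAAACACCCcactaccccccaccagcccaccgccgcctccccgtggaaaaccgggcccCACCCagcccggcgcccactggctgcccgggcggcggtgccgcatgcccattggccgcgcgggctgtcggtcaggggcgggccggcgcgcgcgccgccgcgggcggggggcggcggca
S1PR1: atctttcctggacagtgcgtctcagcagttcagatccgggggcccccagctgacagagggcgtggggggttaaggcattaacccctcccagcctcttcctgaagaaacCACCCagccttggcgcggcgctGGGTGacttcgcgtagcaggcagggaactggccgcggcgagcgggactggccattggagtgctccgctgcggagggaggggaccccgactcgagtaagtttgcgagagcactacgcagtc
KLF2: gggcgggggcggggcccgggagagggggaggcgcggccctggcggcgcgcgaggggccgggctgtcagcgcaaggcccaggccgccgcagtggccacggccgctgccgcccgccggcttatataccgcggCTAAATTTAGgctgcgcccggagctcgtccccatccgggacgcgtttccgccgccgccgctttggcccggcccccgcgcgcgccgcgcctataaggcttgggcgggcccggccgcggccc
IL7R: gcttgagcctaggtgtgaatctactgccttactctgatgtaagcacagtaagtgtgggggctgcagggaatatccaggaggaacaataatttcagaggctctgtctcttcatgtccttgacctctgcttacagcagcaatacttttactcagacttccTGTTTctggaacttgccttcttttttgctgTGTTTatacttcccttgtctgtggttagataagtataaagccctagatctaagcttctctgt

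Windows were found for 7 of the 8 genes, 11 windows in all, because some genes have several starts; there was none for CCR7. The full FOXO element GTAAACA, searched on both strands, was in 0 of the 11 windows and in 2.98% of all 35116 windows of that length. The core AAACA, which lies within that element, was found for 4 of the 7 genes and in 40.4% of all windows. The box CACCC, which KLF factors are known to bind, was found for 4 of the 7 genes and in 54.7% of all windows. S1PR1 was 1 of these genes, with 2 matches. A gene counted if any of its windows matched, so counts of genes and shares of windows are unlike measures. The MEF2 consensus, added after the KLF2 window had been read, was found 111 to 120 bases before the KLF2 start, for no other gene of the set, and in 0.515% of all windows. The E-box CACGTG, which MYC is known to bind, was found for 0 of the 7 genes and in 6.34% of all windows. A match is a run of letters and not a binding site, and no match says only that the letters are absent from that window.

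Other genes known as FOXO targets in various tissues were described as a list. Of 39, 34 were tested, 21 of which were called higher and 6 lower, beside 21.8% and 20.3% of all tested genes. The median log2 fold change was 0.35, beside 0.00 for all genes. The largest rises were those of BBC3, a BH3-only death gene (1.81 ± 0.18), SESN3, a sestrin that restrains mTORC1 (1.597 ± 0.055), and CDKN2D, an inhibitor of CDK4 and CDK6 (1.298 ± 0.072). SESN3 stood at 158 and 168 CPM with FB23-2, against 54.8 and 52.9 CPM in Control. CDKN1A, which encodes the inhibitor p21 (1.21 ± 0.23), BCL6, a transcriptional repressor (1.17 ± 0.15), and CDKN1B, which encodes the inhibitor p27 (0.61 ± 0.04), also rose. Several of these, such as BBC3, are known targets of p53 or of stress factors as well.

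The recombinase genes RAG2 (-2.40 ± 0.32) and RAG1 (-0.70 ± 0.10), known FOXO1 targets in early lymphocytes, fell instead. RAG2 stood at 0.497 and 0.605 CPM with FB23-2 (19 and 21 counts), against 2.91 and 2.91 CPM in Control (70 and 100 counts). It shares 16.8% of its exon bases with RAG1 and 9.2% with IFTAP, both on the opposite strand, so its fall is uncertain. GADD45B, a stress gene, was called lower (-0.51 ± 0.17, edgeR adjusted p = 0.0403) but lost the call under 7 alternatives, among them without FB23-2 replicate 2 (0.202), Control replicate 1 (0.186) and Control replicate 2 (0.0711). Without FB23-2 replicate 2, and likewise without Control replicate 1, the lower calls of the list numbered 3. TXNIP, an inhibitor of thioredoxin and of glucose uptake, averaged 1.01 CPM in FB23-2 cells, with 1.52 CPM in Control, and did not pass (adjusted p = 0.17 in edgeR). The death gene BCL2L11, at 0.20 ± 0.07, did not pass in the main test (edgeR adjusted p = 0.0552), but did with library size scaling (0.0268) and without FB23-2 replicate 1 (0.0278); it shares 10.9% of its exon bases with MIR4435-2HG on the opposite strand.

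Genes known to hold T cells quiescent rose more often than they fell: of 22 tested, 13 were called higher and 3 lower. This stood beside 21.8% higher and 20.3% lower for all tested genes. The median log2 fold change of the list was 0.36. SLFN5, a Schlafen family gene (1.34 ± 0.05), BTG1, an antiproliferative gene (1.11 ± 0.06), and ZFP36L1, an RNA-binding protein that promotes mRNA decay (1.02 ± 0.07), rose most. SLFN5 stood at 164 and 166 CPM with FB23-2, against 66.9 and 63.8 CPM in Control. BTG1 shares 10.4% of its exon bases with LINC01619 on the same strand. LEF1, a T-cell transcription factor, rose too (0.63 ± 0.03), whereas its relative TCF7 fell (-0.75 ± 0.04), as did RUNX1, a lineage factor (-0.41 ± 0.04), and ZFP36L2 (-0.51 ± 0.05). The T-cell markers moved the other way from most of this list: CD6 (-1.21 ± 0.07), CD3D (-0.76 ± 0.04) and CD7 (-0.74 ± 0.07) fell most, and whether that bears on the quiescence genes was not tested.

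Among genes that feed PI3K and AKT signals to FOXO, 7 of 24 were called higher and 5 lower. The shares of all tested genes were 21.8% and 20.3%, and the list's median log2 fold change was 0.04. SGK1, a kinase related to AKT that can phosphorylate FOXO3, rose to 5.18 ± 0.22 CPM with FB23-2, against 1.81 ± 0.55 CPM in Control (SD, n = 2 each; log2 fold change 1.57 ± 0.25). Its relative SGK3 (0.62 ± 0.10) and PHLPP1, a phosphatase that acts on AKT (0.54 ± 0.08), rose as well. MLST8 (-0.57 ± 0.07) and MAPKAP1 (-0.40 ± 0.05), which are subunits of the AKT kinase mTORC2, fell. RICTOR, another subunit, did not pass (0.07 ± 0.09, edgeR adjusted p = 0.578), and its groups overlapped. The adaptor PIK3AP1 fell too (-0.39 ± 0.09), although the call was lost once FB23-2 replicate 2 was left out (adjusted p = 0.0531 in edgeR). Of the AKT genes, AKT2 was called lower (-0.21 ± 0.05), but not without Control replicate 2 (edgeR adjusted p = 0.0829). AKT1 (-0.13 ± 0.05, edgeR adjusted p = 0.0643) missed the threshold but passed with upper quartile scaling (0.0213), a stricter filter (0.0348) and without FB23-2 replicate 1 (0.0135).

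INPP5D encodes SHIP1, a phosphatase that limits PI3K signalling and that Jurkat cells are known to lack as a protein. Its RNA stood at 38.2 and 41.7 CPM with FB23-2, against 30.5 and 36.3 CPM in Control. It did not pass (log2 fold change 0.24 ± 0.09, edgeR adjusted p = 0.0636), although it did with library size scaling (0.0361) and without Control replicate 2 (0.0299).

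Modifiers and partners of FOXO proteins split, with 11 of 26 called higher and 6 lower, beside 21.8% and 20.3% of all tested genes. The list had a median log2 fold change of 0.04. The deacetylases SIRT1 (0.53 ± 0.06) and SIRT2 (0.49 ± 0.07) and the acetyltransferase KAT2B (0.52 ± 0.10) rose. SKP2, the ubiquitin ligase subunit that targets FOXO1 (-0.71 ± 0.05), USP7, a deubiquitinase of FOXO4 (-0.67 ± 0.04), and PRMT1, an arginine methyltransferase that acts on FOXO1 (-0.60 ± 0.04), fell. SKP2 stood at 80.1 and 83.3 CPM with FB23-2, against 130 and 137 CPM in Control. Without Control replicate 2 the number called higher in this list was 6.

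Of 12 tested genes known to regulate KLF2, 6 were called higher and 2 lower, beside 21.8% and 20.3% of all tested genes. HDAC5, a histone deacetylase that represses MEF2 (0.76 ± 0.08), MAP3K3, a kinase upstream of ERK5 (0.53 ± 0.08), and MEF2A, a MEF2 factor (0.45 ± 0.05), rose. MEF2A shares 11.1% of its exon bases with LYSMD4 on the opposite strand. The related MEF2D (0.33 ± 0.06) rose too. HDAC4 fell (-0.45 ± 0.07). FBXW7, a ubiquitin ligase subunit that degrades KLF2, was called lower (-0.22 ± 0.06) but lost the call with no filter (adjusted p = 0.0503 in edgeR), when FB23-2 replicate 2 was left out (0.0978) and with either Control library left out (0.0583 without the first, 0.0936 without the other). Among 14 other KLF genes tested, 5 were called higher and 1 lower, beside 21.8% and 20.3% of all tested genes. KLF5 (0.73 ± 0.16), KLF10 (0.68 ± 0.10) and KLF3 (0.57 ± 0.11) rose most and KLF16 fell (-0.41 ± 0.08). The number called higher in that list was 3 with upper quartile scaling, with no filter, and when FB23-2 replicate 1, FB23-2 replicate 2 or Control replicate 1 was left out. KLF16 shares 16.3% of its exon bases with an antisense gene, so its fall is uncertain. KLF3, KLF4, KLF6, KLF10 and KLF13 were counted in the list of quiescence genes as well.

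Of 17 other forkhead genes tested, 8 were called higher and 1 lower, beside 21.8% and 20.3% of all tested genes. FOXP1 among them was counted with the quiescence genes as well. FOXP1, which is known to keep naive T cells quiescent in competition with FOXO1, rose to 53.2 ± 1.66 CPM with FB23-2, against 38.2 ± 1.32 CPM in Control (SD, n = 2 each; log2 fold change 0.48 ± 0.07). FOXC1 (0.75 ± 0.20) and FOXD1 (1.53 ± 0.38), developmental genes at low levels here, were also called higher. FOXC1 lost its call when FB23-2 replicate 1 (adjusted p = 0.0673 in edgeR) or Control replicate 2 (0.172) was left out, and FOXD1, which shares 16.2% of its exon bases with FOXD1-AS1 on the opposite strand, not without Control replicate 1 (0.0769). FOXK1, a repressor of autophagy genes, fell (-0.32 ± 0.06). The number called higher was 5 when FB23-2 replicate 1 or either Control library was left out.

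Around S1PR1 and CCR7, 9 of 28 tested genes of egress and homing were called higher and 5 lower. The shares of all tested genes were 21.8% and 20.3%, and the list's median log2 fold change was 0.06. CD69, which is known to pull S1PR1 off the cell surface, rose (1.249 ± 0.118), to 20.7 and 19.0 CPM with FB23-2, against 8.05 and 8.57 CPM in Control. GPR183, an oxysterol receptor that positions lymphocytes (2.44 ± 0.39), rose at 2.28 and 2.02 CPM with FB23-2, against 0.498 and 0.320 CPM in Control. The integrin chain ITGB7 rose (1.21 ± 0.20), although it shares 42.1% of its exon bases with ZNF740 on the opposite strand, so its rise is uncertain. The chemokine receptors CCR4 (-1.64 ± 0.18) and CXCR4 (-0.34 ± 0.04) and the integrin chain ITGA4 (-1.12 ± 0.05) fell. SPHK2, a kinase that makes sphingosine 1-phosphate, was called lower (-0.47 ± 0.12), but stood at -0.29 without Control replicate 2 (edgeR adjusted p = 0.141), and it overlaps exons of DBP on the opposite strand. In the list of egress and homing genes the number called lower was 8 with upper quartile scaling and 3 without Control replicate 2.

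Around IL7R, 8 of 18 tested genes of interleukin-7 and common gamma chain signalling were called higher and 2 lower. The shares of all tested genes were 21.8% and 20.3%, and the list's median log2 fold change was 0.19. The interleukin-2 receptor genes IL2RA (2.12 ± 0.38) and IL2RB (1.86 ± 0.23) rose, and both were low in Control. IL2RB stood at 6.28 and 5.62 CPM with FB23-2, against 1.41 and 1.80 CPM in Control. JAK1, the kinase bound to IL7R, rose (0.60 ± 0.05), as did GFI1, a repressor that restrains IL7R in T cells (0.61 ± 0.06). STAT5A, a transcription factor that carries the interleukin-7 signal, fell (log2 fold change -1.35 ± 0.21). Its level was 3.17 ± 0.78 CPM with FB23-2, against 8.16 ± 1.19 CPM in Control (SD, n = 2 each). The related STAT5B was far more abundant, at 102.0 and 103.0 CPM with FB23-2, against 108.7 and 116.8 CPM in Control. STAT5B did not pass (log2 fold change -0.14 ± 0.05, edgeR adjusted p = 0.0566), though its groups did not overlap. PTPN2, a phosphatase of JAK kinases, fell (-0.42 ± 0.05). Without Control replicate 2 the number called higher was 5.

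**Figure D4:**
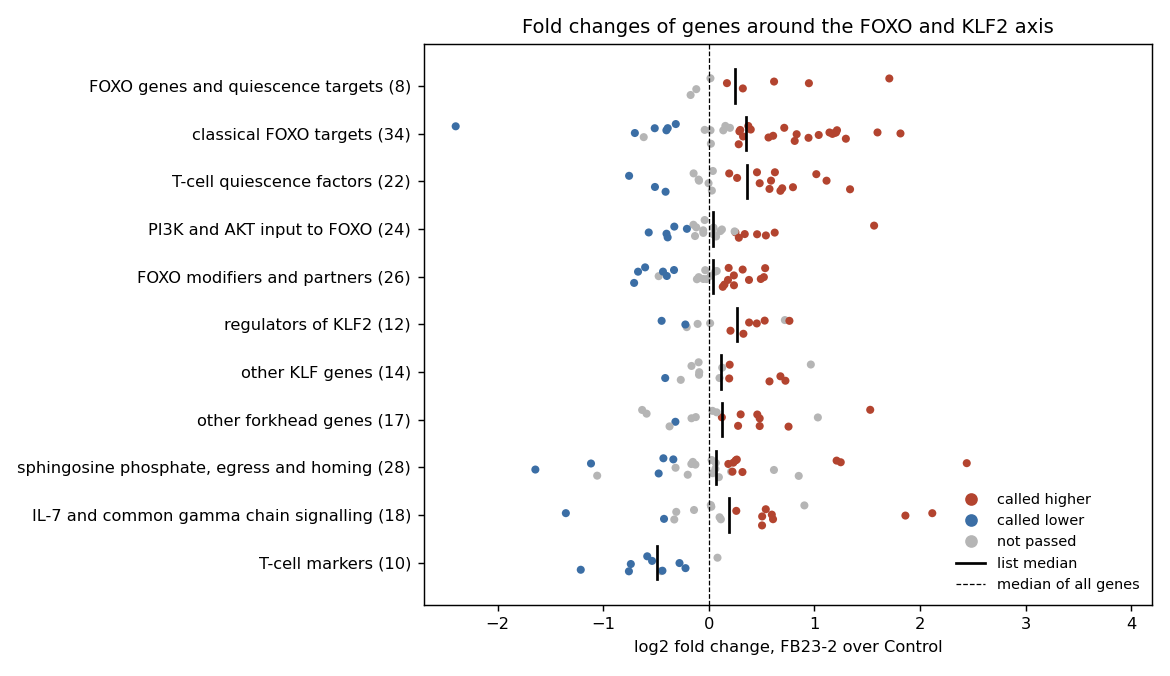
Log2 fold change of FB23-2 over Control (horizontal axis) for each tested gene of 11 gene sets, with the number tested in brackets; red points were called higher, blue lower and grey not at all, vertical bars are list medians and the dashed line is the median of all tested genes. Classical FOXO targets (median 0.35) and quiescence factors (0.36) lie mostly to the right, and T-cell markers (-0.50) to the left. A gene in several lists is drawn in each.

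The genes whose profile over the 4 libraries was most like that of each called gene were found by the distance between centred log2 CPM values, among 10550 protein-coding genes at 5 CPM or more. With 2 libraries a group, this measure mostly picks genes with the same fold change. For CCR7 they were GZMA, a cytotoxic protease (distance 0.0639), and SAT1, a polyamine acetyltransferase (0.0789). For FOXO1 they were CDC25C, a phosphatase of mitotic entry (0.0324), and NFU1, which helps assemble iron-sulphur clusters (0.0359). For S1PR1 they were SIAE, a sialic acid esterase (0.0268), and ARFGAP3, a Golgi trafficking protein (0.0312). For FOXO4 they were TMEM14A (0.00713) and ERCC6L, a mitotic helicase (0.00783), and for FOXO3 the ubiquitin protease gene USP12 (0.00662) and GPBP1 (0.0108). Those nearest to the genes that did not pass were MRPS18C and CAMKMT for KLF2, NARF and ENDOV for IL7R, and FAR1 and RPAP1 for PIK3IP1.

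Of the markers of other cell types, 4 of 7 B-cell, 4 of 8 myeloid and 2 of 6 natural killer genes had enough counts to be tested. The B-cell markers PAX5, CD22 and MS4A1 had at most 11 counts in any library. CD79A averaged 43.4 CPM in FB23-2 cells, with 41.6 CPM in Control, and BLK was also detected, at 12.8 and 11.2 CPM with FB23-2, against 11.4 and 13.0 CPM in Control. None of the 4 tested B-cell markers was called in edgeR, and 0 had an unadjusted p under 0.05. The myeloid markers CD14, CSF1R, MPO and FCGR3A had at most 10 counts in any library, while ITGAM, at 1.86 and 0.836 CPM with FB23-2, against 1.12 and 0.871 CPM in Control, and CD33, at 0.759 and 1.09 CPM with FB23-2, against 0.623 and 0.610 CPM in Control, were detected at low levels. Of 4 tested myeloid markers 1 was called: CD68, a lysosomal protein gene (3.71 ± 0.39), which shares 81.7% of its exon bases with an unnamed gene on the same strand, so its rise is uncertain. The summed level of all 8 myeloid markers was 12.01 and 16.69 CPM with FB23-2, against 3.74 and 3.40 CPM in Control, most of it CD68 with FB23-2. The natural killer markers KLRF1, KLRD1, GNLY and NCR1 had at most 11 counts in any library, and KLRF1 had 0 in all 4. NKG7, a cytotoxic granule gene that activated T cells also express, stood at 4.24 and 3.92 CPM with FB23-2, against 2.57 and 3.22 CPM in Control (adjusted p = 0.116 in edgeR). NCAM1, an adhesion molecule gene, stood at 1.86 and 2.54 CPM with FB23-2, against 1.29 and 1.31 CPM in Control (adjusted p = 0.0828 in edgeR). All 6 natural killer markers summed to 6.52 and 6.95 CPM with FB23-2, against 4.03 and 4.59 CPM in Control, and the part of these markers in the results above was not tested.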

How the data were processed

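The values are whole-number counts per Ensembl gene ID, deposited by the authors as 1 table with no normalization, and every value column matched 1 sample. The submitters' processing notes list HISAT2 2.2.0, StringTie and hg38. No annotation, strand setting or counting step was found in the labels, so reads of overlapping genes cannot be told apart. The labels describe replicates as biologically independent. Between libraries of a group the chi-square per degree of freedom over genes with at least 20 counts was 6.69 (FB23-2) and 7.48 (Control), so none was a copy.

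Names came from a gene symbol list (56105 IDs) or GENCODE release 29 (486), which also gave coordinates and exon lengths, and 7661 IDs had no name. Promoters came from RefSeq (GRCh38.p14).

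Genes were kept by filterByExpr (minimum count 10), scaled by TMM and compared with the quasi-likelihood test of edgeR 4.0.16 (robust) in R 4.3.3, with Benjamini-Hochberg adjustment over 18817 genes. Intervals of folds are the estimate and SE on the test's degrees of freedom. Alternatives used DESeq2 1.42.0 and limma 3.58.1 (voom), other scalings and filters, a replicate block, no mitochondrial transcripts and each library left out.

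Genes and lists were chosen with earlier results of these data known. From each list up to 3 genes called in each direction, largest first, at a mean of 1 CPM or more were named. FOXO6, CXCR4, LEF1, BCL6, CDKN1A, CDKN1B, BCL2L11, TXNIP, JAK1, STAT5B, MEF2D, AKT1, AKT2 and single markers were added after their values were seen. Some genes of the lists are not reported here by name.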

Additional observations from a re-analysis of the deposited data

How the results depend on the processing

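Of 66 named genes that were called, 56 kept their direction and their call under all alternatives that gave a value. The number of the 8 genes called higher was 3 with no filter, and 3 to 4 with 1 library left out. The sign of PIK3IP1, never called, turned with upper quartile scaling (-0.0253) and a stricter filter (-0.0003), and its value ran between -0.0372 (without Control replicate 1) and 0.0697 (without Control replicate 2) with 1 library left out. The cause was not tested. Across all genes, 7917 were called, against 6720 with no filter, 6823 with DESeq2 and 5650 to 6596 with 1 library left out. The median log2 fold change of all genes lay between -0.0393 (upper quartile scaling) and 0.0483 (library size alone).

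The labels give both groups replicate numbers 1 and 2 but do not say that equal numbers share a culture or day. The deviations of equal-numbered libraries correlated at 0.0623 over genes. With the replicate number as a block, 8268 genes were called, 5 of the 8 genes were called higher and 0 lower, and the adjusted p was 0.0363 for FOXO3. That fit also put INPP5D (adjusted p = 0.0192), BCL2L11 (0.0262) and AKT1 (0.0397) past the edgeR threshold, which they missed without the block.

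Where a library was left out, the lone library of its group was assumed to vary like the others. With 2 libraries a group, the 95% intervals of KLF2 (0.755-fold to 1.124-fold), IL7R and PIK3IP1 (0.761-fold to 1.342-fold) leave small differences undetectable.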
